A study of Oryza sativa Japonica Group with 4 samples.

Results

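Near-complete CHH gains were defined as CHH hyper-DMRs (differentially methylated regions that gained methylation) with a methylation level under 0.05 in CK DNA and of at least 0.8 after M.CviP I treatment. There were 24921 such regions among the 1245898 DMRs of the series, the 1056015 hyper-DMRs and the 656623 CHH hyper-DMRs. They made up 5.85% of the 425919 CHH hyper-DMRs that started below 0.05, which are called low-CK regions here. Since both levels chose the members, this percentage and the levels themselves are a description, and nothing is read from them. The other 400998 low-CK regions, with treated levels from 0.1057 to just under 0.8, served as the comparison. A further 1258 CHH hyper-DMRs reached 0.8 from a CK level of 0.05 or more and were not members.

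The tested library came from purified genomic DNA of Nipponbare rice seedlings (Oryza sativa Japonica Group), of which 4 μg was kept at 37°C for 1 h with the enzyme M.CviP I (8 units) and with SAM, the methyl donor, at 640 μM. Its CK library came from DNA of the same cultivar without that treatment. For an overlap with independent libraries, the list of losses between seedlings given 80 μM zebularine for 5 days and seedlings given DMSO only, both from an age of 5 days, was used as well. Each of these 4 conditions had 1 library, so no difference below has a replicate check or a test, and the reads behind a level are unknown beyond the 3 reads per cytosine that the methods required. M.CviP I acted on naked DNA in a tube, so its gains are not a state of living cells.

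Plant cytosines are methylated in the CG, CHG and CHH contexts (H = A, C or T), which are maintained by different methyltransferases. In plants, CHH methylation has no symmetric partner on the opposite strand, is set up anew by RNA-directed DNA methylation and by CMT2, and is found mainly at transposons. M.CviP I is known as a methyltransferase of the C in GpC, which can fall in any of the contexts. The authors call it a CpG methyltransferase in their methods and a GpC methyltransferase in their results. They add that it seems to methylate CHG and CHH cytosines as well. Which cytosines of a region follow a G was not analysed here. Bisulfite sequencing (BS-seq) reads methylated cytosines as C and unmethylated ones as T, and a level is the mean fraction of C over the cytosines of a region, from 0 to 1.

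The members lay at the upper end of a continuous range of treated levels. Their median level was 0.853 after M.CviP I treatment (quartiles 0.822 and 0.901) and 0.004 in CK (quartiles 0 and 0.0111). For the other low-CK regions the medians were 0.541 after treatment (quartiles 0.444 and 0.636) and 0.0149 in CK (quartiles 0.0083 and 0.0306). The member gain had a median of 0.846 and ranged from 0.752 to 1. Between 0.8 and 0.9 after treatment there were 18475 members, and 6446 members had a level of 0.9 or more, which is 25.9% of them. No break was seen at the cutoff: 3019 members had a treated level under 0.81, with a median of 28 cytosines over 466 bp, and 3044 other regions had a level from 0.79 up to 0.8, with a median of 33 cytosines over 479 bp. Exactly 0.8 was listed for 446 members, 214 of which held 5 cytosines. The member with the most cytosines among those at 0.8 lies on chromosome 2 from 13202193 to 13202686 (MSU7.0) and has 57 cytosines and a CK level of 0.0146. The nearest region outside lies on chromosome 8 from 27444756 to 27445255, where 66 cytosines had treated and CK levels of 0.7998 and 0.0055.

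A level of exactly 1 after treatment was listed for 1379 members (5.53%), and 1172 members (4.70%) combined it with a CK level of exactly 0. These all-or-none regions were small. Their median was 6 cytosines, 529 of them held 5 cytosines, the minimum of the list, and 93.9% held fewer than 10. The largest of them held 22 cytosines and lies on chromosome 4 from 29318379 to 29318873. It shared 494 bp with a CG hyper-DMR at 0.907 after treatment and 0 in CK, and 145 bp with a CHG hyper-DMR at 0.8 after treatment and 0 in CK. A CK level of exactly 0 was found in 43.1% of all members and in 2.54% of the other low-CK regions. This share moved with the number of cytosines: it was 83.4% for members with 5 cytosines and 71.7% for other regions with 5, against 9.51% for members with 40 to 49 cytosines and 0.985% for other regions with 40 to 49.

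The members held few cytosines. Their median was 17 CHH cytosines (quartiles 8 and 32), against 52 in the other low-CK regions (quartiles 41 and 62). Fewer than 10 cytosines were found in 31.2% of the members and 1.62% of the others, and at least 40 cytosines in 15.4% of the members and 77.4% of the others. Seen from the low-CK regions as a whole, 73.1% of the 3089 regions with 5 cytosines were members, 32.9% of those with 10 to 14, 6.499% of those with 30 to 39 and 1.11% of those with 50 to 59. Among the 24460 regions with 80 or more cytosines there were 5 members. The lower end of the treated levels moved along with this. The 5th percentile of the treated level was 0.666 for low-CK regions with 5 cytosines and 0.327 for those with 50 to 59. Small regions with a low treated level were thus rare among the low-CK regions. The median treated level was 0.840 at 5 cytosines, 0.6005 at 30 to 39 and 0.411 at 80 or more. The part that the authors' cutoff of P < 0.01 per region had in this was not tested.

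**Figure D1:**
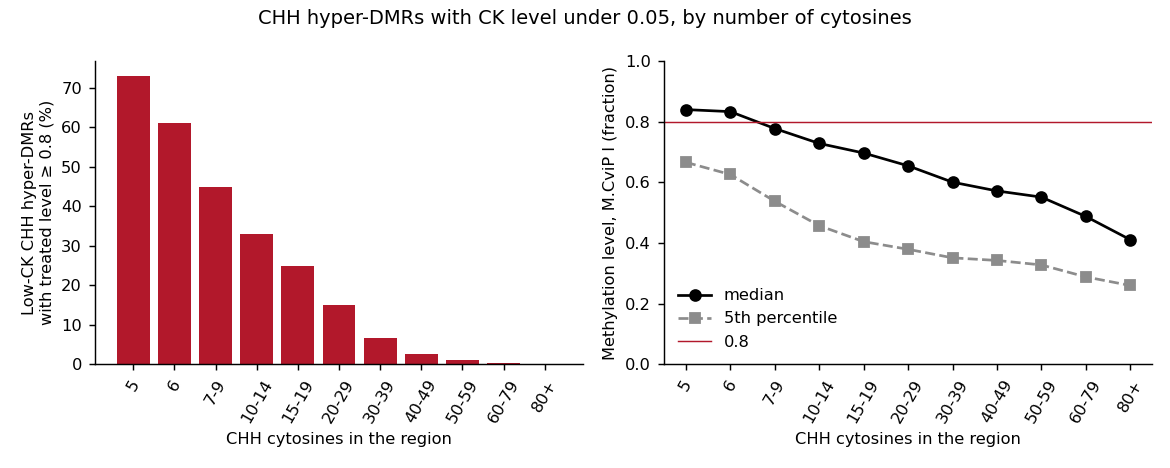
Low-CK CHH hyper-DMRs grouped by their number of CHH cytosines. The left plot gives the percentage of each class that reached a treated level of 0.8, from 73.1% at 5 cytosines to 0.0204% at 80 or more; the right plot gives the median and the 5th percentile of the methylation level (fraction) after M.CviP I treatment, with a line at 0.8.

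They were also shorter than the other low-CK regions. Over all numbers of cytosines, the median length was 282 bp for members (quartiles 134 and 484 bp). It was 493 bp for the others (quartiles 481 and 498 bp), close to the longest region of the list. Members under 200 bp made up 38.7%, against 3.64% of the others, and regions of at least 450 bp, called full-length below, made up 36.1% of the members and 88.3% of the others. The member median ranged from 252 to 309 bp over the 12 chromosomes, whereas the median of the others was 493 bp on every chromosome. In all, the members covered 7.42 Mb and the others 187 Mb.

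The members also had fewer CHH cytosines per base. The median density was 6.88 CHH cytosines per 100 bp in members (quartiles 5.13 and 9.09) and 10.8 in the others (quartiles 8.82 and 12.85). It was lower in members on 12 of 12 chromosomes, where the member median lay between 6.57 and 7.01 and that of the others between 10.6 and 10.9. Among full-length regions only, the medians were 7.415 per 100 bp in 9006 members and 10.98 in 354040 others, and again lower in members on 12 of 12 chromosomes. Of the full-length low-CK regions with fewer than 4 CHH cytosines per 100 bp 36.8% were members, of those with 8 to 10 it was 2.72%, and of those with 14 or more 0.127%. The counted cytosines are those with enough reads, so a low density can mean few CHH positions in the sequence or few covered ones, and these cannot be told apart in the list. Between regions with like numbers of cytosines the difference in density was smaller. With 10 to 14 cytosines, the median was 6.03 per 100 bp in members and 7 in the others. With 30 to 39 cytosines, the median was 7.27 per 100 bp in members and 7.43 in the others, and with 50 to 59 cytosines it was 10.9 in members and 11.1 in the others. Median lengths were 487 and 489 bp at 30 to 39 cytosines, and 494 bp in both groups at 50 to 59. With lengths so alike, a like number of cytosines left little room for a difference in density, so nothing is read from these classes.

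**Figure D2:**
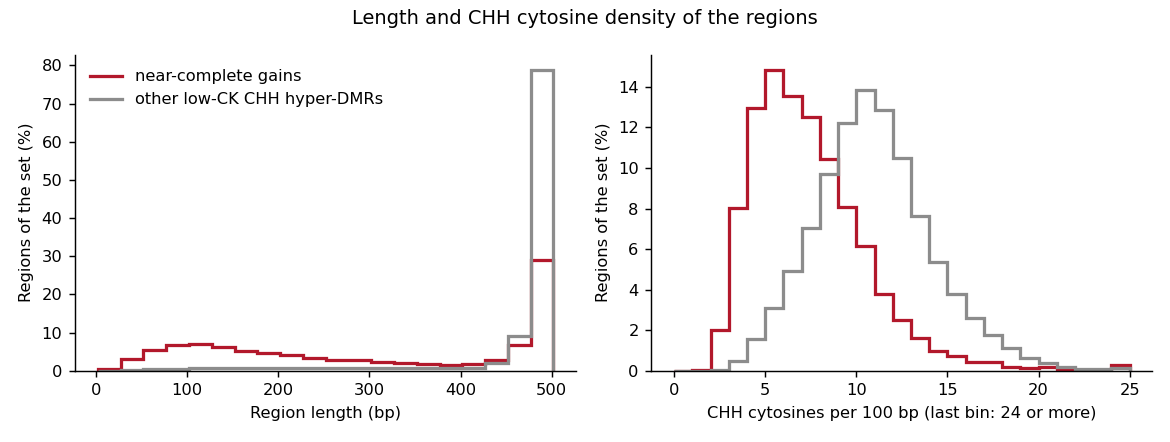
Distribution of region length (left, bp) and of CHH cytosine density (right, cytosines per 100 bp) in near-complete gains (red) and in the other low-CK CHH hyper-DMRs (grey), each as the percentage of regions of its own set. The members spread over all lengths with a median of 282 bp, whereas the others pile up near the maximum with a median of 493 bp, and the member densities lie lower (median 6.88 against 10.8).

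The 5 members with the most CHH cytosines were full-length regions, 4 of them at treated levels from 0.8088 to 0.828 and the other at 0.8606. The first lies on chromosome 8 from 27916298 to 27916792, with 85 cytosines and levels of 0.8096 after M.CviP I treatment and 0.0042 in CK. It shared 340 bp with a CHG hyper-DMR and none with a CG hyper-DMR. The second, on chromosome 2 from 28831697 to 28832190, also held 85 cytosines, at 0.8088 after treatment and 0.0266 in CK. On chromosome 1, the region from 7690504 to 7690991 held 84 cytosines at 0.828 after treatment and 0.0033 in CK. A second region there, from 6807384 to 6807865, held 81 cytosines at 0.8606 after treatment and 0.0435 in CK. The region on chromosome 3 from 10961099 to 10961599 held 81 cytosines at 0.814 after treatment and 0.0023 in CK, and its CG hyper-DMR differed from the rest by a CK level of 0.4225, with 0.7562 after treatment. All 5 shared bases with a CHG hyper-DMR, at 0.738 to 0.887 after treatment and 0 to 0.0167 in CK, and none touched a CG hypo-DMR. The treated levels of their adjoining CHH hyper-DMRs ranged widely. They were 0.198 on the left and 0.497 on the right of the region at 7690504, 0.556 and 0.914 beside that at 6807384, and 0.750 and 0.7105 beside that on chromosome 3. The region on chromosome 8 had 0.544 on its left and 0.3145 on its right, and that on chromosome 2 had 0.597 and 0.682.

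Members lay together with CG gains more often than the other low-CK regions did. At least 1 base was shared with a CG hyper-DMR by 15886 members (63.7%) and by 21.3% of the others, although the members were shorter and so had less room for an overlap. Among full-length regions the shares were 73.7% for members and 20.0% for others. The member share was the higher on 12 of 12 chromosomes for full-length regions, from 62.6% to 80.6%, against 15.4% to 25.7% in the others. By bases, 42.8% of the member sequence lay within CG hyper-DMRs, against 9.04% of that of the others. In return, 15.5% of the 115672 CG hyper-DMRs touched a member. These CG and CHG cytosines were not used to choose the members, but they were read in the same pair of libraries.

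With CHG hyper-DMRs the picture depended on length and on the CK level. A base was shared by 18363 members (73.7%) and by 61.0% of the others, and in full-length regions by 94.8% of members and 62.7% of the others. The member share among full-length regions was higher on 12 of 12 chromosomes, from 92.6% to 96.05%, against 55.8% to 71.7% in the others. When only regions with a CK level under 0.02 were compared, at any length, the order changed, with 76.3% of members and 78.4% of the others sharing a base. With both limits at once, full-length and a CK level under 0.02, the shares were 95.5% for members and 80.6% for others. For CG hyper-DMRs the members stayed ahead under both limits, at 74.98% against 26.5%. CHG hyper-DMRs numbered 283720, and 7.86% of them touched a member.

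Both contexts were gained together in 53.3% of the members and 18.1% of the other low-CK regions. CHG alone was found in 20.4% of members and 42.9% of the others, CG alone in 10.5% of members and 3.17% of the others, and neither in 15.8% of members and 35.8% of the others. In full-length regions the gain in CHH was nearly always accompanied: 213 of 9006 members (2.365%) touched neither a CG nor a CHG hyper-DMR, against 34.8% of the others. In regions under 200 bp, neither context was found in 31.8% of members and 52.1% of the others.

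The overlaps changed gradually with the treated CHH level rather than at 0.8. In full-length low-CK regions, a CG hyper-DMR was shared by 6.12% of regions with a treated CHH level of 0.1 to 0.2, by 17.0% at 0.5 to 0.6, by 52.15% at 0.7 to 0.8, by 72.7% at 0.8 to 0.9 and by 85.5% at 0.9 to 1. For CHG hyper-DMRs the shares were 11.7%, 69.9%, 93.3%, 94.9% and 94.4% at the same levels. Above 0.7 the CHG share was thus nearly level, while the CG share still climbed. At all lengths, the CHG share fell to 63.2% in the class of 0.9 to 1, where the median length was 149.5 bp, against 84.95% in the class of 0.7 to 0.8, where it was 487 bp.

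**Figure D3:**
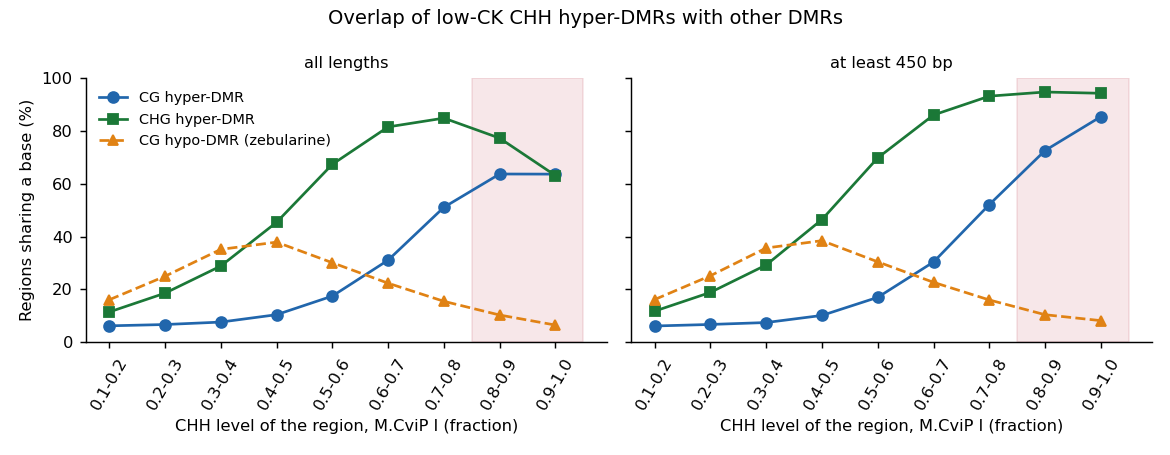
Percentage of low-CK CHH hyper-DMRs that shared at least 1 base with a CG hyper-DMR (circles), a CHG hyper-DMR (squares) or a CG hypo-DMR of the zebularine experiment (triangles), by the CHH level of the region after M.CviP I treatment (fraction). The left plot holds all lengths and the right plot regions of at least 450 bp, where the CG share climbs to 85.5%; the members lie in the shaded classes.

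The levels of the CG and CHG regions that the members touched were high as well. For each region, the hyper-DMR sharing the most bases was taken. The CG hyper-DMRs touched by members had a median level of 0.786 after M.CviP I treatment and 0.0083 in CK, and those touched by the other low-CK regions 0.688 after treatment and 0.013 in CK. For CHG the medians were 0.82 after treatment and 0.0063 in CK at members, and 0.647 after treatment and 0.012 in CK at the others. A CHG level of at least 0.8 after treatment was listed in 56.6% of the members with a CHG hyper-DMR and in 18.2% of the others with one, and a CG level of at least 0.8 in 46.1% of the members with a CG hyper-DMR and in 22.9% of the others with one. The member's own CHH level was above that of its CG hyper-DMR in 76.6% of cases and above that of its CHG hyper-DMR in 64.7%. Since members were chosen for a high CHH level, this direction was favoured by the choice.

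Few members lay where zebularine had lowered CG methylation. In those libraries, which played no part in the choice of members, a CG hypo-DMR was touched by 2316 members (9.29%) and by 28.8% of the other low-CK regions. Among full-length regions the shares were 10.2% for members and 29.7% for the others, and the member share was lower on 12 of 12 chromosomes, from 5.40% to 18.35%, against 23.0% to 34.2% in the others. By bases, 5.37% of the member sequence and 14.4% of the sequence of the others lay in CG hypo-DMRs. Regions with a CG hyper-DMR seldom touched a CG hypo-DMR as well. Of the 15886 members with a CG hyper-DMR 279 did, and of the 85257 others with one 4443 did. How far the lower share of members with a CG hypo-DMR goes together with their higher share with a CG hyper-DMR was not tested. As a share of the 182125 CG hypo-DMRs, 1.39% touched a member. The CG hypo-DMRs at members had a median CG level of 0.774 after zebularine treatment and 0.947 in their CK, close to 0.776 after zebularine and 0.945 in CK at the others, and the median difference was -0.166 in each case. CHG hypo-DMRs touched 71 members (0.285%), against 0.668% of the others, and CHH hypo-DMRs 82 members (0.329%), against 0.411% of the others.

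The CK level moved with these shares. Among full-length low-CK regions with a CHH level of exactly 0 in CK, a CG hypo-DMR was shared by 6.58% of members and 10.4% of the others. In those with a CK level of 0.01 to 0.02 the shares were 12.25% for members and 19.4% for the others, and in those with a CK level of 0.03 to 0.05 they were 54.4% for 158 members and 55.6% for the others. The member share was lower within each of the 5 CK classes, and the gap was smallest in the class of 0.03 to 0.05. For CG hyper-DMRs, full-length members were ahead in each of the 5 CK classes, for example 81.6% against 57.1% at a CK level of 0 and 31.65% against 7.60% at 0.03 to 0.05.

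The members were found on every chromosome, and over all chromosomes together their share was lowest near the middle. Chromosome 1 held 3776 members, or 87.3 per Mb, and chromosome 12 held 1279, or 46.5 per Mb. The members made up 7.80% of the low-CK regions on chromosome 1 and 3.91% on chromosome 12, whereas all low-CK regions together were nearly even, at 1104 to 1188 per Mb. When each chromosome was divided into 10 equal segments, the member share of low-CK regions was 6.03% in segment 1, 3.51% in segment 5, 8.11% in segment 9 and 7.73% in segment 10. In the outer segments (1, 2, 9 and 10) the share was 6.86%, and in the inner segments (4 to 7) 4.50%, and it was higher in the outer segments on 12 of 12 chromosomes. The ends were not alike. Segments 9 and 10 were above the inner segments on 12 of 12 chromosomes, but segments 1 and 2 on 10 of 12. On chromosome 4 the share was 3.57% in segments 1 and 2, 5.57% in the inner segments and 10.2% in segments 9 and 10, and on chromosome 9 it was 3.13%, 4.32% and 7.78% in the same order. Full-length regions gave the same shape, with 2.66% in segment 1, 1.295% in segment 5 and 3.73% in segment 9. The median treated level of all low-CK regions ran alongside, at 0.575 in segment 1, 0.507 in segment 5 and 0.592 in segment 9. Their CHH density was 11.2 per 100 bp in segment 5, the highest of the 10, and 10.25 in segment 9.

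**Figure D4:**
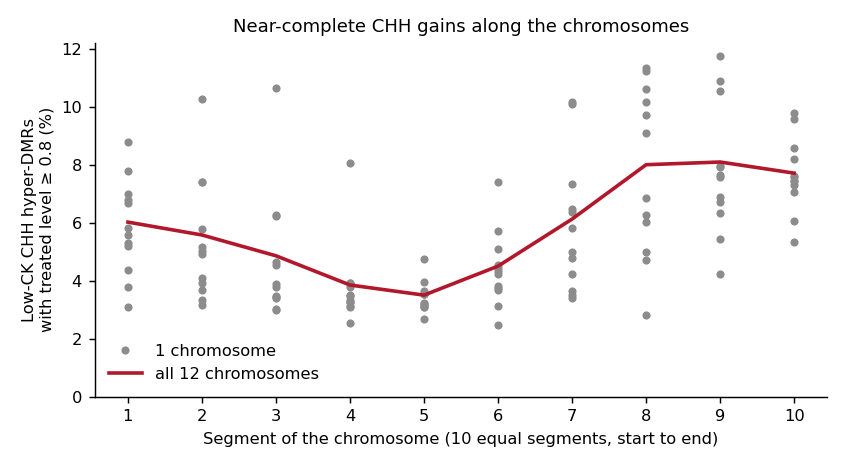
Percentage of low-CK CHH hyper-DMRs that were near-complete gains in each of 10 equal segments of the chromosome, from its start (1) to its end (10). Each grey point is 1 of 12 chromosomes and the red line is the value over all of them, which falls to 3.51% in segment 5 and reaches 8.11% in segment 9.

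In windows of 1 Mb, a member was present in each of the 368 whole windows, with a median of 58 members and a 5th and 95th percentile of 29 and 129.6. The highest number was 152, found on chromosome 1 from 35000001 to 36000000 and on chromosome 4 from 26000001 to 27000000, followed by 146 on chromosome 4 from 29000001 to 30000000. In these windows 13.3%, 13.8% and 13.4% of the low-CK regions were members. The lowest number was 12 on chromosome 11 from 12000001 to 13000000, a window that also held only 715 low-CK regions, of which 1.68% were members. The next were 23 members each on chromosome 5 from 12000001 to 13000000 (2.05%) and on chromosome 10 from 9000001 to 10000000 (1.83%). The median treated level of all low-CK regions was 0.617 to 0.623 in the 3 windows with the most members and 0.480 to 0.499 in the 3 with the fewest.

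Most members had no other member directly beside them, but members were only 24921 of the 656623 CHH hyper-DMRs, among which neighbours were counted. Where a CHH hyper-DMR followed within 100 bp, it was a member in 13.0% of cases after a member and 2.61% after another low-CK region. Directly before, the shares were 8.04% and 1.65%. No CHH hyper-DMR of any kind lay within 100 bp of 31.65% of members, against 3.64% of the other low-CK regions. Another member was within 100 bp for 2124 of them (8.52%), within 1 kb for 31.7% and within 10 kb for 78.7%, and the median gap to the nearest member was 3065 bp. Runs of neighbouring CHH hyper-DMRs at most 100 bp apart that were all members held 1 region in 91.5% of members. There were 967 runs of 2 regions, 58 of 3 and 4 of 4, and no run was longer. The run of 4 with the most cytosines lies on chromosome 8 from 23906558 to 23908463, spans 1906 bp and holds 160 CHH cytosines. Its regions had levels of 0.9092, 0.8169, 0.8152 and 0.87 after M.CviP I treatment and of 0.0142, 0.0149, 0.0021 and 0.0073 in CK, from left to right. Each of them shared bases with a CG hyper-DMR, at 0.9442, 0.7928, 0.5625 and 0.8 after treatment and 0 to 0.0184 in CK, and with a CHG hyper-DMR. On its left, more than 100 bp away, another member of 22 cytosines runs from 23906045 to 23906430 with a treated level of 0.8455 and a CK level of 0, and the CHH hyper-DMR before that had a treated level of 0.75. On its right the CHH hyper-DMR that begins at 23908494 had a treated level of 0.3299 and a CK level of 0.0701, and the next 2 had treated levels of 0.229 and 0.2526.

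Levels next to members were lower than in the members themselves, a direction that the choice of members favoured. For full-length members, the CHH hyper-DMR directly after the region, about 508.5 bp away from centre to centre, had a median treated level of 0.638 (quartiles 0.524 and 0.736), and the one after that, about 1020 bp away, 0.558. For the other full-length low-CK regions, the first and second regions after them had medians of 0.519 and 0.517. At the fifth region after, the medians were 0.549 for members and 0.515 for the others. Where there was a next region, it was itself a member in 12.8% of cases after a full-length member and in 2.54% of cases after another full-length region. Such pairs were taken only from unbroken stretches with gaps of at most 100 bp.

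**Figure D5:**
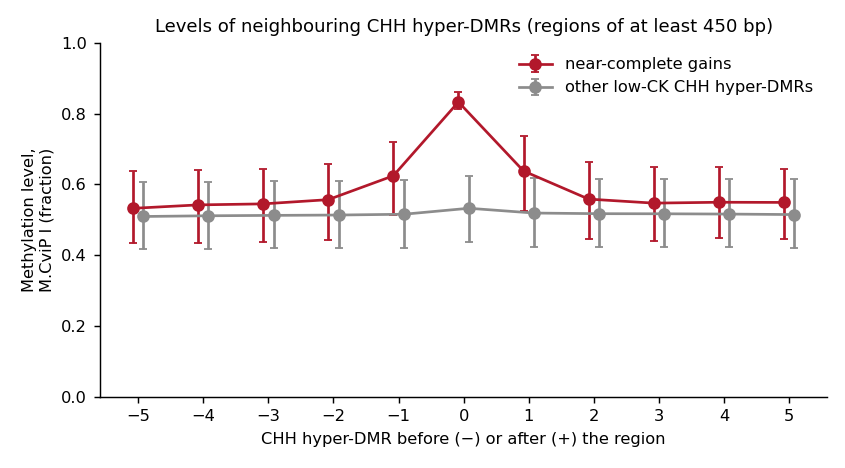
Methylation level (fraction) after M.CviP I treatment of the CHH hyper-DMRs before (negative) and after (positive) full-length near-complete gains (red) and the other full-length low-CK regions (grey), in stretches with gaps of at most 100 bp. Points are medians and bars the quartiles over regions; at position 0 are the chosen regions themselves, whose level was fixed by the choice, and around members the median is 0.624 directly before and 0.638 directly after.

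Short members lay at the edge of stretches of CHH hyper-DMRs or apart from them. Of the 15915 members under 450 bp, 49.9% had a neighbouring CHH hyper-DMR within 100 bp on the left only, 1.53% on the right only, 1.88% on both sides and 46.7% on neither side. The other low-CK regions under 450 bp had the same tilt, with 63.6% on the left only and 2.08% on the right only, but fewer stood alone (23.6%). Full-length members had neighbours on both sides in 52.1% of cases, against 82.5% of the other full-length regions. The tilt to the left follows the numbering of the chromosome, and its part in the short lengths was not tested. No CHH hyper-DMR lay within 1 kb of 0.297% of the members and 0.117% of the others.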

How the data were processed

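BS-seq libraries of M.CviP I treated DNA, its CK, zebularine-treated seedlings and their DMSO control (1 each) were compared by the authors, who used Fastp for trimming and Bismark for alignment to MSU7.0, kept positions with at least 3 reads and called DMRs with CGmapTools at P < 0.01 and a difference of at least 0.1. The authors deposited the mean methylation level of each region as a fraction. The lists have no header. Columns 6 and 7 were taken as the treated and CK level because their difference has the sign each list is named for. The deposited differences served only to identify these columns, and the deposited t statistics and p-values were not used. Length was end minus start plus 1.

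Members, other lists and classes were chosen with earlier results of these data known. Regions named in the text were those with the most cytosines, the longest run, the 1 Mb windows with the most and fewest members, the regions nearest the cutoff on either side and the largest region at 1 after treatment and 0 in CK. Chromosome ends were the largest region ends of the lists. Neighbouring regions are not independent, so no interval or test is given. Overlap counting was first tested on simulated regions (simulated data). Python 3.11.15, numpy 2.4.6, pandas 2.3.3 and matplotlib 3.10.9 were used. The planned GpC content, sequence and gene annotation were not analysed here. Alternatives are given in the closing section.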

Additional observations from a re-analysis of the deposited data

How the results depend on the processing

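Each condition had 1 library and the depth is unknown, so differences between libraries cannot be separated from the treatment and the precision of a level is unknown. Of 39 values under an alternative, 34 moved out of the 95% interval of the value given or, for the number of members, by over 1.5 times. The other 5 were 22044 members at a CK level under 0.02, 17146 with at least 10 cytosines and 23826 after merging within 100 bp, the share of 63.7% with a CG hyper-DMR at a treated level of at least 0.9, and the share of 9.28% with a CG hypo-DMR with at least 10 cytosines. The 95% intervals took regions as independent draws, which neighbouring regions are not, and do not measure the spread between libraries. They were narrow, and most alternatives redefined the members, so a move out of them says little about how stable a value is. The limits on length and CK level together were added after seeing the data. The order of members and other low-CK regions changed in 1 of 31 comparisons, the share with a CHG hyper-DMR at a CK level under 0.02 (76.3% against 78.4%). No paired analysis was possible because no condition was replicated.

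With a treated level of at least 0.9 there were 6446 members, 1.51% of low-CK regions, with a median length of 149.5 bp, 8 cytosines and 6.03 per 100 bp, and 63.2% touched a CHG hyper-DMR, against 61.7% of the other low-CK regions, and 6.47% a CG hypo-DMR, against 27.97%. With a CK level under 0.02, the share of members was 8.37%, the median length 309 bp, the cytosines 18, the density 7 per 100 bp, and the overlaps 66.65% (CG hyper), 76.3% (CHG hyper) and 7.37% (CG hypo). With at least 10 cytosines the share was 4.165%, the length 459 bp, the density 7.21, and the overlaps 69.8% (CG hyper) and 85.7% (CHG hyper). With regions of at least 450 bp the share was 2.48%, the cytosines 36, the density 7.415, and the overlaps 73.7%, 94.8% and 10.2%; with a CK level under 0.02 as well, they were 74.98%, 95.5% and 8.85%. Means in place of medians were 297.6 bp, 21.35 cytosines and 7.43 per 100 bp. With 50% or more of the member covered, a CG hyper-DMR was found in 44.8%, a CHG hyper-DMR in 55.9% and a CG hypo-DMR in 5.75% of members. Apart from length and numbers of regions, which the limits set directly, the cause was not tested.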

Other observations

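A treated level of at least 0.8 was reached by 5.85% of the low-CK CHH hyper-DMRs, by 33.9% of the 85501 CG hyper-DMRs and by 24.8% of the 208600 CHG hyper-DMRs with a CK level under 0.05. The order of the contexts was another at few cytosines. In regions with 5 to 9 cytosines the share was 54.45% for CHH, 40.8% for CG and 43.6% for CHG. With 10 to 19 cytosines it was 29.06% for CHH, 27.09% for CG and 17.97% for CHG. With 20 to 29 cytosines it was 14.9% for CHH, 32.9% for CG and 15.2% for CHG. Of the 29005 CG hyper-DMRs that met the same cutoffs, 25.8% shared a base with a near-complete CHH gain, and of the 51788 such CHG hyper-DMRs 21.4% did.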
